A study of Mus musculus with 10 samples.

Results

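The genes examined here were 54 transcription factor genes of the Dlx, Lhx, sine oculis-related (*Six2* to *Six6*), Pax, Alx, Tlx, Emx, Otx, Irx, Msx, Gsx, En, Nkx and Meis families, a given list of developmental homeobox and Pax genes outside the Hox clusters. All 54 were found among the 55450 genes of the GENCODE M21 basic annotation (mouse build mm10), of which 21951 were protein-coding. A gene counted as bound when a peak overlapped its body or lay within 2 kb of any of its transcription start sites (TSSs) by at least 1 bp. The data were 6 peak lists from ChIP-seq, in which crosslinked chromatin is precipitated with an antibody and peaks mark regions enriched over input chromatin. Antibodies to Qki-5, to RNA polymerase II (Pol II) and to Srebp2 were each used on 1 library of *Qk*-/- cells and 1 of WT cells, among 10 libraries that included 4 inputs. Cells of both genotypes were of FvB/C57BL6 hybrid strain and were differentiated with triiodothyronine into oligodendrocytes from neural stem cells (NSCs), which the methods describe as whole-brain cultures of newborn *Nestin-CreERT2;Qk* L/L pups. Whether WT cells carried the same alleles without 4-hydroxytamoxifen is not stated in the labels. *Qk* was removed in culture with 4-hydroxytamoxifen, through Cre recombinase driven by the *Nestin* promoter and loxP sites around an exon of *Qk*. Qki-5 and Pol II libraries were from passage 7 and shared an input within a genotype, and Srebp2 libraries were from passage 8 with separate inputs.

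Homeobox genes encode transcription factors that bind DNA through a homeodomain, and Pax proteins bind through a paired domain that some of them combine with a homeodomain. In development they are switched on in limited regions of the neural tube, limbs and organs, where they set positional and cell identity, and in other cells many of them are held silent by Polycomb complexes. Qki binds RNA and its Qki-5 isoform resides in the nucleus, Pol II transcribes protein-coding genes, and Srebp2 activates genes of sterol synthesis. With 1 library for each antibody and genotype there was no replicate check, so no test was made between groups, and the values describe these libraries. The number of reads behind each list is not in the peak files, so depth was unknown. Fold enrichment over input was ranked within a list, and folds of the same gene in 2 lists are set side by side as values, not as a measure of change. The Qki-5 and Srebp2 lists used here hold fewer peaks than the study describes, so a gene without a peak is a gene without one in these lists.

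The prefix mNSC stands before every Qki-5 and Pol II peak name, and OL before the Srebp2 ones, whereas the labels of all 6 libraries give differentiated oligodendrocytes. Marker genes were checked for the labelled cell type by their Pol II peaks. Among oligodendrocyte markers, 3 had a Pol II peak in *Qk*-/- cells and 5 in WT cells (*Mbp*, *Cnp*, *Sox10*, *Olig1* and *Olig2*), and the myelin genes *Mag*, *Mog* and *Mobp* and the regulator *Myrf* had none in WT cells. Precursor markers had Pol II at 2 of 4 in *Qk*-/- cells and 3 of 4 in WT cells, astrocyte markers at 4 of 6 and 6 of 6, neuron markers at 2 of 6 and 3 of 6, and microglial markers at 1 of 5 and 2 of 5. All 6 neural stem cell markers had Pol II in both genotypes. The part that the mix of cells had in the member values was not tested.

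The summit windows of 4 members are shown because they hold the strongest WT Qki-5 peaks among members without Pol II and the strongest among members with Pol II whose window lay outside untranslated regions. Each is 300 bases of mm10 centred on the summit, plus strand, 5′ to 3′, with CpG dinucleotides in capitals.
Tlx2, chr6:83070586-83070885: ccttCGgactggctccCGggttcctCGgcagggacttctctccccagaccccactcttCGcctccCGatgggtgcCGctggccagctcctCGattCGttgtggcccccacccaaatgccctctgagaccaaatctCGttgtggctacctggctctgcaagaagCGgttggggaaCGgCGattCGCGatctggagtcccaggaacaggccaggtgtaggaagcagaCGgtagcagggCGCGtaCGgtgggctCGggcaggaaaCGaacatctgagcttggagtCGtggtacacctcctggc
Alx1, chr10:103027218-103027517: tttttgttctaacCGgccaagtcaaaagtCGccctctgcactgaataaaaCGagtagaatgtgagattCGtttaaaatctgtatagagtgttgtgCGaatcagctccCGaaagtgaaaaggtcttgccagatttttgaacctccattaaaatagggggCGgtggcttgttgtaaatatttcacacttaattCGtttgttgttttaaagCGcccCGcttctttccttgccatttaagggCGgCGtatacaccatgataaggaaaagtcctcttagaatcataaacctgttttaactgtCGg
Lhx9, chr1:138839142-138839441: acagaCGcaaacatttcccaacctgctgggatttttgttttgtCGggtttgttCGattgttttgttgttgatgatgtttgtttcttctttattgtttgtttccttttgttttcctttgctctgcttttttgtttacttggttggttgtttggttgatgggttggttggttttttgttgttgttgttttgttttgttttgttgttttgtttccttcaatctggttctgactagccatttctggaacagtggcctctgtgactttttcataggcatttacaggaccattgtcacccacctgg
Irx5, chr8:92355672-92355971: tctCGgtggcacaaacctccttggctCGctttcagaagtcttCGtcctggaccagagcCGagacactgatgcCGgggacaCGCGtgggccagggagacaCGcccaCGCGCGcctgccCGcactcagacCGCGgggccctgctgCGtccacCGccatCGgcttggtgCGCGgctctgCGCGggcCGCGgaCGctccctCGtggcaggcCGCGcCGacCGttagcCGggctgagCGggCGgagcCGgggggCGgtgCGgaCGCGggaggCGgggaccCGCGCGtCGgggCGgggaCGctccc
The *Tlx2* window, upstream of the gene, held 21 CpG and 63% G and C. In *Alx1* the window lay in an intron and held 13 CpG. The *Lhx9* window, also intronic, had 3 CpG, and 63% of it was masked as repeat. At *Irx5*, the member of these that also carried Pol II, the window held 44 CpG and overlapped the promoter of the noncoding gene *Crnde*.

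Qki-5 was found at many of these genes, and mostly at those without Pol II. In WT cells 22 of 54 members (40.7%, 95% Clopper-Pearson interval 27.57 to 54.97%) had a Qki-5 peak, against 23.4% of protein-coding genes and 12.3% of all genes. Pol II showed the opposite difference, with a WT peak at 14 of 54 members (25.9%) against 57.2% of protein-coding genes. Qki-5 without any Pol II peak in the promoter or gene body occurred at 19 members (35.2%, 22.7 to 49.4%), against 1.13% of protein-coding genes. Of the 22 Qki-5-bound members, 19 (86.4%, 65.1 to 97.1%) had no Pol II peak, against 4.82% of the 5141 Qki-5-bound protein-coding genes. Most members lacked Pol II in any case, with no WT Pol II peak at 40 of 54. Qki-5 was at 19 of these 40 (47.5%, 31.5 to 63.9%) and at 3 of the 14 with Pol II (21.4%, 4.66 to 50.8%). The 2 intervals overlap. Over protein-coding genes the same shares were 2.64% without and 39.0% with Pol II. These intervals cover counting error only, and genes are not replicates. The searched region had a median length of 9003 bp for members and 19288 bp for protein-coding genes. Length was uneven among members, with a median of 25392 bp for those with Qki-5 alone and 20662 bp for those with both proteins. It was 15848 bp for those with Pol II alone and 8264 bp for those with neither. The part of this length in the Qki-5 and Pol II shares was not tested.

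The 54 members fell into 4 classes by their WT peaks. Qki-5 alone marked 19 genes, which were *Dlx1*, *Dlx2*, *Dlx4*, *Lhx1*, *Lhx4*, *Lhx6*, *Lhx8*, *Lhx9*, *Six6*, *Pax3*, *Pax5*, *Pax7*, *Alx1*, *Alx4*, *Tlx2*, *Tlx3*, *Irx1*, *En1* and *Meis2*. Both proteins were found at *Emx2*, *Irx5* and *Meis1* (5.56% of members, against 22.3% of protein-coding genes). Pol II alone marked *Lhx2*, *Six3*, *Six4*, *Six5*, *Pax6*, *Pax9*, *Otx1*, *Otx2*, *Irx3*, *Msx1* and *En2* (20.4%, against 34.9% of protein-coding genes). The other 21 members had neither, among them all 3 Nkx genes, both Gsx genes and 4 of the 9 Pax genes. Their share of 38.9% was near the 41.7% of protein-coding genes with neither. By family, 5 of 8 Lhx genes, both Alx genes and 2 of 3 Tlx genes carried Qki-5 alone, against 35.2% of all members. Both Otx genes and 3 of 5 sine oculis-related genes carried Pol II alone. These families are named for their high counts and hold few genes, so the counts do not establish a difference between families. At *Otx1* the class turns on the searched region, since its WT Pol II peak over the promoter extends to a WT Qki-5 peak 912 bp outside that region.

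**Figure D1:**
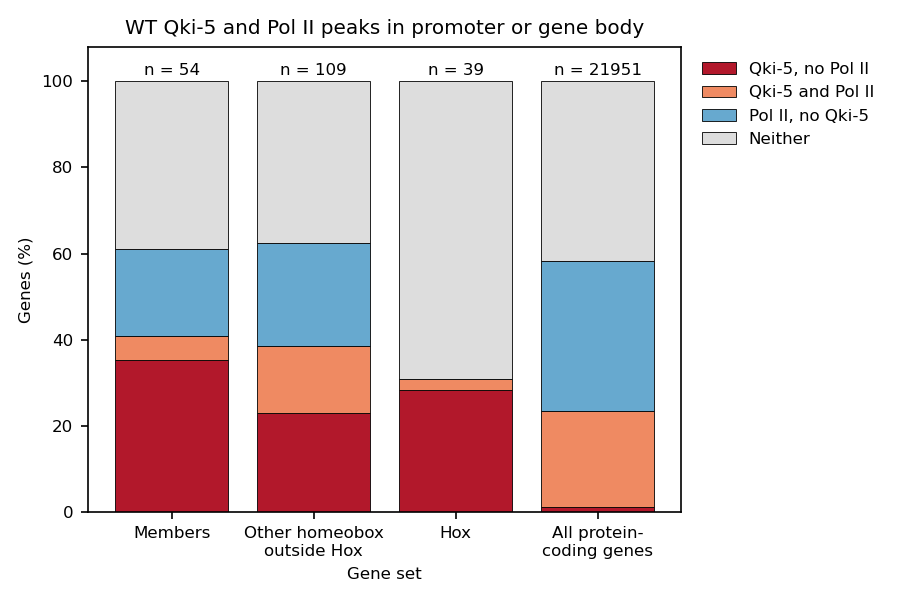
Stacked bars give the percentage of genes in 4 gene sets that had a WT Qki-5 peak without Pol II, both, Pol II alone or neither in the promoter or gene body. Qki-5 without Pol II makes up 35.2% of the 54 members and 1.13% of the 21951 protein-coding genes.

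The class of Qki-5 without Pol II also held other homeobox genes. Of 39 Hox genes, 12 had a WT Qki-5 peak, 11 of them without Pol II, and 1 had a Pol II peak. Of 109 further homeobox genes outside Hox, 42 had a Qki-5 peak, 25 of them without Pol II, and 43 had a Pol II peak. Members, Hox genes and these further genes supplied 55 of the 248 protein-coding genes with Qki-5 and no Pol II (22.2%), although they are 0.920% of protein-coding genes. Members alone supplied 19 of the 248 (7.66%).

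Qki-5 peaks at members were wide. The 22 bound members held 44 distinct WT Qki-5 peaks, none shared by a pair of members, and 12 members (54.5%) had several, against 18.7% of Qki-5-bound protein-coding genes and 30.6% of those without Pol II. Median width was 675 bp at members (range 219 to 3660 bp), against 359 bp over all 7539 WT Qki-5 peaks. At least 1000 bp was reached by 13 of 44 member peaks (29.5%), against 3.28% of all peaks and 7.74% of peaks that overlapped no Pol II. All 13 wide member peaks lay clear of Pol II peaks, as did 121 of the 247 such peaks in the list. Peaks at other homeobox genes were wide too, with a median of 569 bp and 17.2% of at least 1000 bp at Hox genes, and 564.5 bp and 25.6% at the 109 further homeobox genes. Fold enrichment was shifted less than width, with a median of 5.98 at members and 5.34 over all peaks. Even so, 16 member peaks (36.4%) ranked in the top 10% of the list by fold, and 9 (20.5%) reached 10-fold, against 2.83% of all peaks. Counting only the strongest peak of each gene, 14 of 22 members (63.6%) were in that top 10%, against 10.7% of Qki-5-bound protein-coding genes and 33.1% of those without Pol II. Taking the strongest peak favors genes with several peaks, which were more frequent among members.

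**Figure D2:**
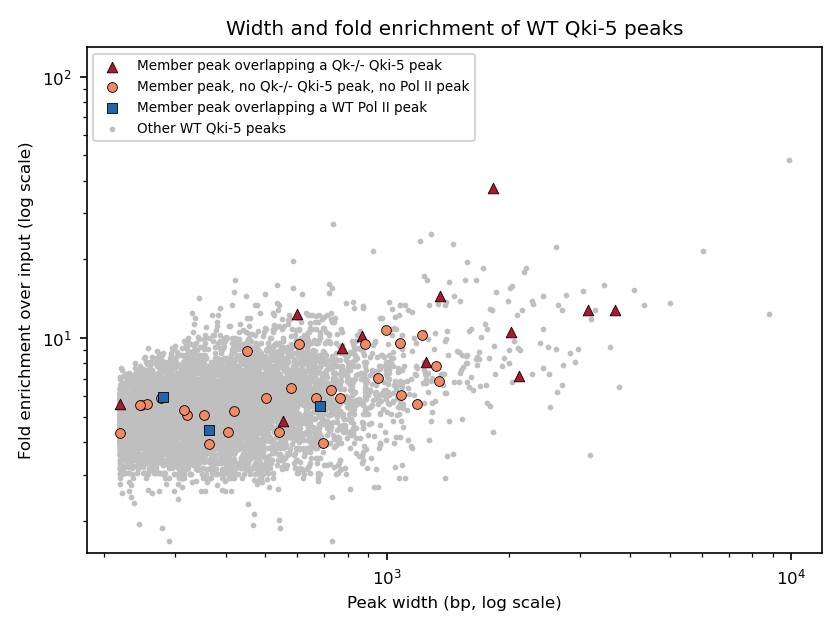
Each point is a WT Qki-5 peak, with its width in bp and its fold enrichment over input on log axes. Member peaks also found in the *Qk*-/- Qki-5 list (triangles) lie mostly at the wide and strong end, with a median width of 1303.5 bp and a median fold of 10.3. All 306 WT peaks also found in that list have medians of 574.5 bp and 8.05-fold. The 3 member peaks with Pol II (squares) lie at 4.43 to 5.93-fold.

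Stronger member peaks were also wider, with a Spearman rho of 0.71 between fold and width over the 44 peaks and 0.28 over all 7539. These values describe peaks of 1 library that share their depth.

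*Tlx2* had the second-ranking peak of the whole WT Qki-5 list. This gene, which acts in enteric neuron development, carried 1 Qki-5 peak in each genotype, at chr6:83070179-83071419 in *Qk*-/- cells (19.7-fold, rank 7 of 427) and at chr6:83069715-83071546 in WT cells (37.5-fold, rank 2 of 7539). The WT peak was 1832 bp wide with its summit 443 bp upstream of the nearest TSS of the gene. No Pol II peak lay in the *Tlx2* promoter or body in either genotype. Its relative *Tlx3*, a selector of excitatory neuron identity in the dorsal spinal cord, had a Qki-5 peak of 10.9-fold (rank 52) upstream of the gene in *Qk*-/- cells. In WT cells *Tlx3* had peaks of 10.1-fold (rank 194) at the same place and 7.05-fold in an untranslated region. *Tlx1* had no peak in any list, and its searched region ended 2117 bp from the nearest WT Qki-5 peak.

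The LIM homeobox genes supplied 4 of the 9 members that reached 10-fold. *Lhx8*, needed for cholinergic neurons of the basal forebrain, had the widest member peak, 3660 bp across its promoter at 12.8-fold (rank 76) in WT cells. In *Qk*-/- cells the same stretch held 3 narrower peaks of 10.03, 8.92 and 5.06-fold. *Lhx9*, which acts in gonad and limb development, had 6 WT Qki-5 peaks over its body, the strongest 3149 bp wide at 12.8-fold (rank 69), and 1 peak of 9.20-fold (rank 90) in *Qk*-/- cells inside that strongest one. *Lhx1*, which acts in head and kidney formation, had a peak of 8.60-fold (rank 110) in *Qk*-/- cells and of 12.4-fold (rank 83) in WT cells at chr11:84522631-84523229, with a weaker WT peak of 5.06-fold beside it. *Lhx6*, which specifies cortical interneurons, had a single WT peak of 10.8-fold (rank 152) in an intron outside the promoter, and *Lhx4*, a pituitary regulator, had WT peaks of 7.82 and 5.89-fold. No *Qk*-/- Qki-5 peak was found at *Lhx6* or *Lhx4*, so the genes of this family with Qki-5 in *Qk*-/- cells were *Lhx1*, *Lhx8* and *Lhx9*.

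*Alx1*, which acts in craniofacial mesenchyme, had a Qki-5 peak of 8.03-fold (rank 132) in *Qk*-/- cells and of 14.5-fold (rank 36) in WT cells, both in an intron. *Alx4*, of the same family, had weak intronic peaks of 4.64-fold (rank 393) in *Qk*-/- cells and 4.81-fold (rank 4843) in WT cells. Both genes were thus in both Qki-5 lists, *Alx1* with the stronger peak in each. *Irx1*, an Iroquois patterning gene, had *Qk*-/- peaks of 12.3-fold (rank 35) and 5.47-fold and WT peaks of 10.5-fold (rank 171) and 9.20-fold at the same places. *Meis2*, a cofactor of Hox proteins, had *Qk*-/- peaks of 8.48 and 7.15-fold, against WT peaks of 9.48, 8.92 and 7.16-fold. At *Meis2* both *Qk*-/- peaks lay within the weakest but widest WT peak, 2127 bp across the promoter shared with noncoding genes.

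Among Pax genes, *Pax7*, a regulator of muscle stem cells and neural crest, was the sole gene with Qki-5 in *Qk*-/- cells. Its peaks measured 8.48 and 3.77-fold in *Qk*-/- cells and 5.61 and 8.10-fold at the matching positions in WT cells. *Pax5*, which commits B cells, had WT peaks of 10.3-fold (rank 178) just upstream of the gene and 5.89-fold in an intron. *Pax3*, which acts in neural crest and muscle, had 1 WT peak of 6.31-fold in an intron. The paralogues *Dlx1* and *Dlx2*, which drive inhibitory interneuron development, stand next to each other on chromosome 2 and had 4 WT Qki-5 peaks each. Those at *Dlx2* reached 9.59-fold (rank 251) over 1079 bp and those at *Dlx1* 6.44-fold (rank 1810). *Dlx4* had peaks of 5.56 and 5.31-fold, whereas *Dlx5* and *Dlx6*, the other linked pair, had none, with the nearest WT Qki-5 peak 299044 bp from *Dlx5* and 282573 bp from *Dlx6*. *En1*, a midbrain and hindbrain regulator, had 3 peaks with the strongest, 9.48-fold (rank 276), in an untranslated region, and the eye gene *Six6* had a peak of 5.61-fold (rank 3185) that reached into its promoter from upstream.

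**Figure D3:**
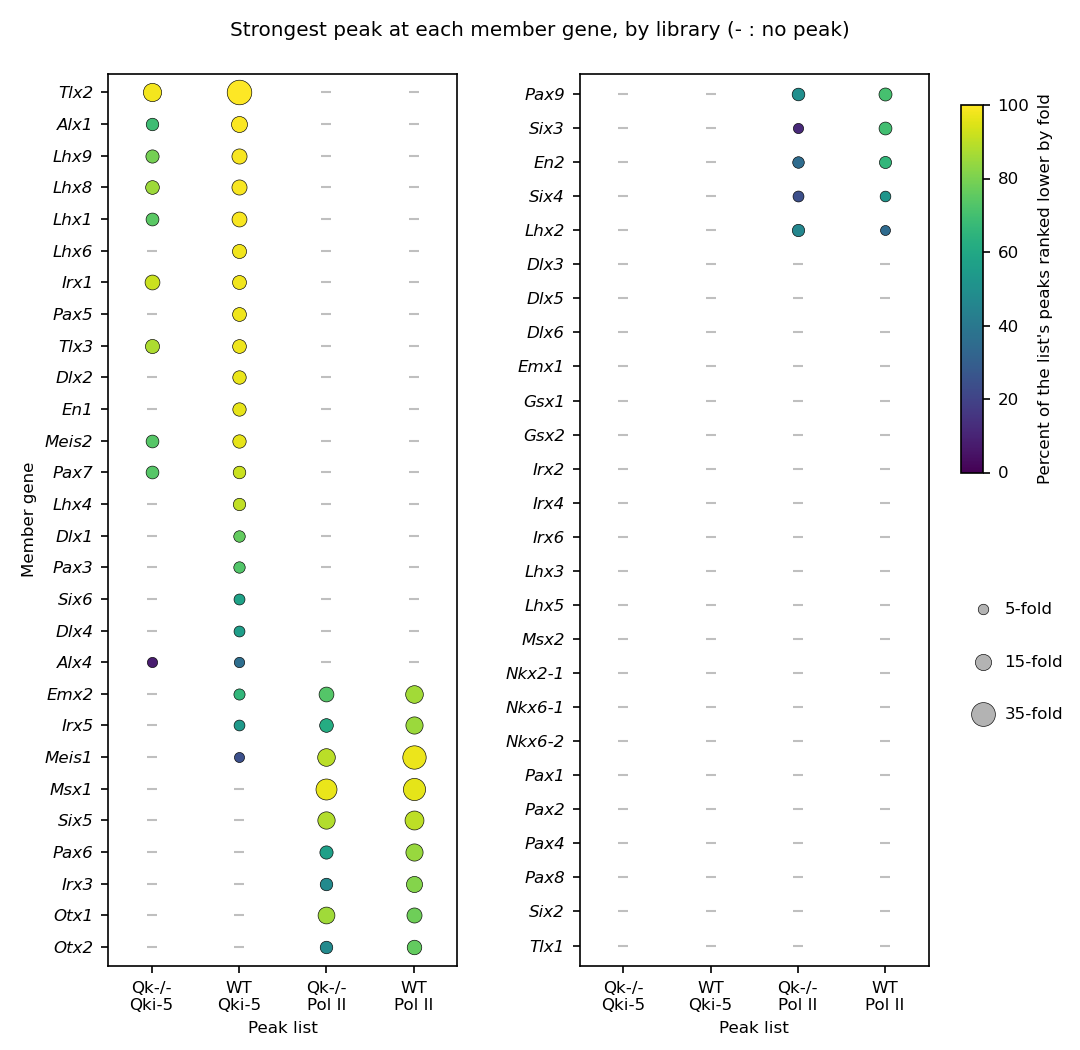
Rows are the 54 members and columns the *Qk*-/- and WT Qki-5 and Pol II lists. Circle area grows with the fold enrichment of the strongest peak, color gives the percentage of that list's peaks ranked lower by fold, and a dash marks no peak. No member with Qki-5 in *Qk*-/- cells has a Pol II peak, and 19 of the 22 members with WT Qki-5 have no WT Pol II peak. In the whole *Qk*-/- Qki-5 list, 132 of 427 peaks overlap a *Qk*-/- Pol II peak.

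Where both proteins were present, Qki-5 peaks were of ordinary strength for the list. The 3 members with both had 1 WT Qki-5 peak each, of 5.93-fold (*Emx2*), 5.48-fold (*Irx5*) and 4.43-fold (*Meis1*). Medians were 6.31 over the 41 member peaks that overlapped no Pol II, 5.34 over all WT Qki-5 peaks and 5.31 over those that overlapped Pol II. For the strongest peak of each of the 19 members without Pol II the median was 9.59. That value is not a like measure, since many of these 19 had several peaks to choose from. Each of these 3 Qki-5 peaks overlapped a WT Pol II peak, and they were the 3 of 44 member peaks (6.82%) that did so, against 79.3% of all WT Qki-5 peaks. *Emx2*, a patterning gene of the cerebral cortex, shared its peak with the antisense gene *Emx2os*. *Meis1*, a Hox cofactor, had its summit 24 bp upstream of a TSS.

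**Figure D4:**
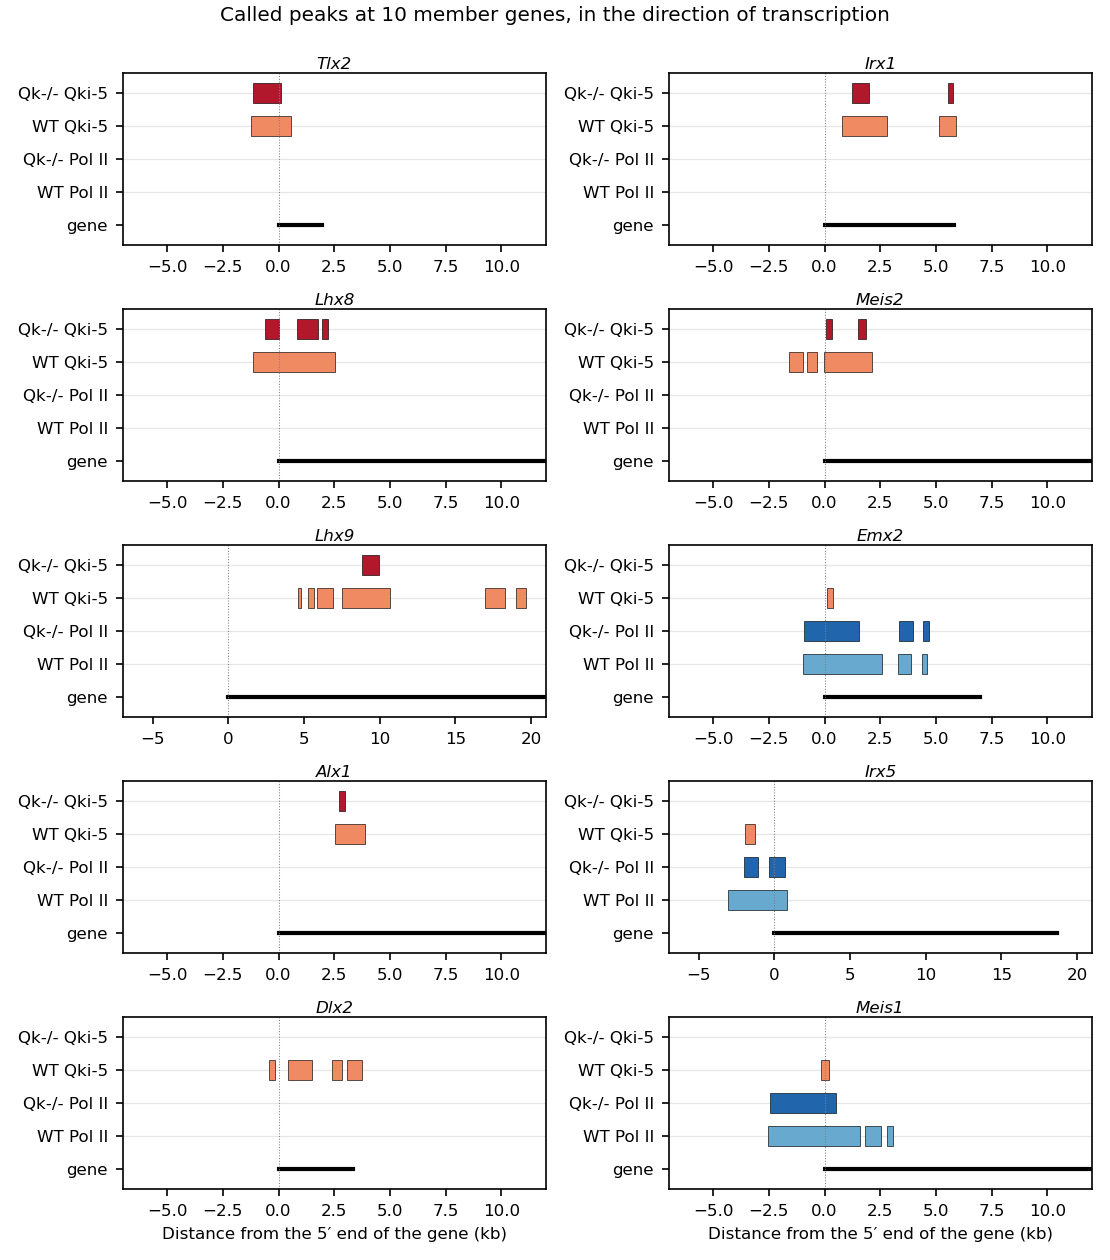
Peaks of the 4 Qki-5 and Pol II lists are drawn as bars at 10 members by distance in kb from the 5′ end of the gene, in the direction of transcription, with the gene as a black line. The *Lhx8* Qki-5 peak of 3660 bp in WT cells holds 3 separate peaks in *Qk*-/- cells, and at *Emx2*, *Irx5* and *Meis1* the Qki-5 peak lies inside a Pol II peak.

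Members were frequent in the Qki-5 list of *Qk*-/- cells. That list held 427 peaks, against 7539 in WT cells, and the *Qk* locus itself had no Qki-5 peak in *Qk*-/- cells and 1 peak (8.13-fold) in WT cells. A *Qk*-/- Qki-5 peak occurred at 10 of 54 members (18.5%, 9.25 to 31.4%), against 1.08% of protein-coding genes, 4 of 39 Hox genes (10.3%) and 14 of the 109 further homeobox genes (12.8%). All 10 also had a WT Qki-5 peak and no Pol II peak, and they made up 10 of the 22 WT-bound members (45.5%, 24.4 to 67.8%), against 4.28% of WT-bound protein-coding genes. Member peaks made up 15 of the 427 *Qk*-/- peaks (3.51%) and 44 of the 7539 WT peaks (0.584%). Each of the 15 overlapped a WT Qki-5 peak, as did 78.5% of the whole *Qk*-/- list. None of the 15 overlapped a *Qk*-/- Pol II peak, against 132 of the 427, so most of that list was also clear of Pol II. Of the 44 WT member peaks, 12 (27.3%) overlapped a *Qk*-/- Qki-5 peak, against 4.06% of all WT peaks and 10.8% of those without Pol II. These 12 had a median width of 1303.5 bp, and the 32 other member peaks one of 559.5 bp. All 306 WT peaks that overlapped a *Qk*-/- Qki-5 peak were also wider than the list, with a median of 574.5 bp against 359 bp. In every one of the 10 genes the strongest peak stood at a lower percentile by fold in the *Qk*-/- list than in the WT list, as it did at 86.4% of the 220 protein-coding genes in both lists, and the summed peak width was smaller, as it was at 98.6% of those 220. The lists differ in length, so these positions do not measure a change in binding.

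Pol II at members was present in the same genes in both genotypes. All 14 members with a WT Pol II peak had a *Qk*-/- Pol II peak (100%, interval 76.8 to 100%). The share over WT-bound protein-coding genes, 84%, lies inside that interval, so the 14 of 14 says little particular about members. *Qk*-/- Pol II thus marked 25.9% of members and 48.2% of protein-coding genes. None of the 40 members without WT Pol II had a *Qk*-/- Pol II peak, against 0.319% of the 9393 protein-coding genes without WT Pol II. With so low a share over all genes, the 0 of 40 says nothing particular about members. *Msx1*, which acts in tooth and craniofacial development, had 26.8-fold enrichment (rank 417 of 12835) in *Qk*-/- cells and 29.9-fold (rank 1343 of 32280) in WT cells. *Meis1* had 18.1-fold in *Qk*-/- cells and 33.7-fold (rank 925) in WT cells. *Six5* had 17.5-fold in *Qk*-/- cells and 21.3-fold in WT cells, and *Emx2* had 12.2-fold in *Qk*-/- cells and 18.1-fold in WT cells. These were among the 5 strongest members of both lists, joined by the forebrain gene *Otx1* in *Qk*-/- cells (16.4-fold, against 12.7-fold in WT cells) and by *Irx5* in WT cells (9.997-fold in *Qk*-/- cells and 17.2-fold in WT cells). The *Irx5* values belong to different summits. In WT cells the summit lay 17 bp from a TSS of *Crnde*, where the *Qk*-/- peak was 8.51-fold. The 9.997-fold *Qk*-/- summit lay 220 bp from a TSS of *Irx5*. *Pax6*, a regulator of eye and cortical progenitors, had 9.23-fold in *Qk*-/- cells and 17.1-fold in WT cells. The weakest strongest-peak values were 4.61-fold for *Six3* in *Qk*-/- cells and 4.29-fold for *Lhx2* in WT cells.

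Summed Pol II width was smaller in the *Qk*-/- list at 13 of 14 members, against 98.2% of the 10551 protein-coding genes in both Pol II lists. *Lhx2*, a cortical selector gene, was the exception. The percentile of the strongest peak was lower in the *Qk*-/- list at 11 of 14 members and at 89.1% of those protein-coding genes. Member Pol II peaks had a median of 7.84-fold against 8.43-fold over the *Qk*-/- list, and of 5.40-fold against 5.22-fold over the WT list. No member had a Srebp2 peak in either genotype, in lists of 28 *Qk*-/- and 77 WT peaks that marked 0.123% and 0.342% of protein-coding genes. With so few peaks the 0 of 54 says nothing particular about members.

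Qki-5 at members was not confined to start sites. Of the 44 WT summits, 17 lay in introns, 11 in untranslated regions, 10 upstream, 5 in coding exons and 1 downstream, 27 were within 2 kb of a TSS of the member, and the median distance was 1541.5 bp. At 3 members, *Lhx6*, *Pax3* and *Alx4*, Qki-5 lay only outside the promoter. With promoters alone searched, 19 members and 19.4% of protein-coding genes had WT Qki-5, against 22 members and 23.4% with gene bodies included. Genes with Qki-5 only outside the promoter were thus not particular to members. Summit places are given for member peaks only, without a share over all WT Qki-5 peaks. Some member peaks also fell in the searched region of another gene. Such genes were *AI606473* at *Lhx8*, *Gm40999* at *Irx1*, *Dlx1as* at *Dlx1* and *Dlx4os* at *Dlx4*. Several unbound members had a Qki-5 peak close by, at 912 bp from the searched region of *Otx1*, 1579 bp from that of *Pax8* and 1653 bp from that of *Six2*.

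The CpG content of member peaks lay between that of Qki-5 peaks without and with Pol II. Median CpG content in 300 bp at the summit was 5.5 per 100 bp at the 44 member peaks and 5.33 at the 41 of them without Pol II, against 1.33 for the 1562 Pol II-free peaks with sequence and 8.0 for peaks with Pol II. Over all WT Qki-5 peaks the median was 6 per 100 bp, at protein-coding genes it was 8.33 over all their peaks and 1.67 over the 791 without Pol II. For the strongest peak of each gene it was 5.33 at members and 9 at protein-coding genes. G and C made up a median of 54.5% of the member windows, against 50.3% of windows without Pol II and 63.7% of windows with it. Hox gene peaks had a median of 2.33 CpG per 100 bp and peaks at the 109 further homeobox genes one of 5.17. Repeats covered at least 50% of the window at 1 member peak, the strongest of *Lhx9*.

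**Figure D5:**
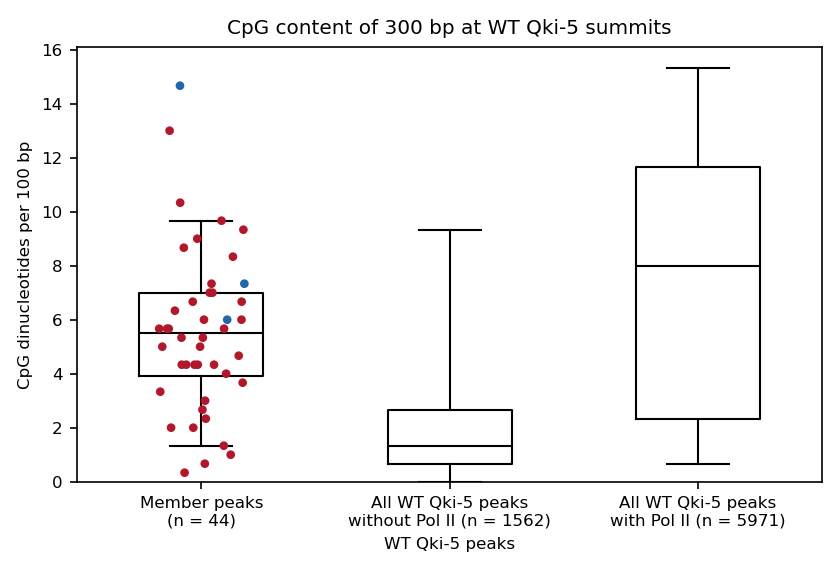
Boxes give the median and quartiles, and whiskers the 5th and 95th percentiles, of CpG dinucleotides per 100 bp in 300 bp at WT Qki-5 summits. Points are the 44 member peaks (blue where they overlap Pol II), whose median of 5.5 lies between those of all peaks without Pol II (1.33) and with Pol II (8.0).

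As a description, 6 short motifs were searched as exact letters on both strands of these windows, of which CCAAT and the reverse complement of TTGGC share 4 letters. The GC box GGGCGG was present in 36.4% of member windows, against 13.8% of all windows without Pol II and 45.5% of all WT Qki-5 windows. CCAAT was present in 47.7% of member windows, against 36.0% and 27.8% of the same sets. The cores of the RNA element that Qki recognizes, written as DNA, were present in few windows, ACTAAC in 6.82% of member windows against 6.08% without Pol II and 4.41% of all, and ACTAAT in 9.09% against 7.55% and 4.01%. The homeodomain core TAATTA was present in 9.09%, against 7.30% and 3.36%, and the nuclear factor I letters TTGGC in 43.2%, against 64.2% and 54.5%. Of the windows printed above, those of *Alx1* and *Irx5* held GGGCGG and TTGGC, and those of *Tlx2* and *Lhx9* held none of the 6 motifs.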

How the data were processed

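ChIP-seq peak lists of 6 antibody and genotype combinations were analysed, 1 library each, with 4 input libraries used by the authors only. The paper's methods give trimming in Trim Galore, alignment to mm10 in Bowtie2, duplicate removal in SAMtools and peak calling of each library against its input in MACS2 at a q-value of 0.05. Bowtie 1.2.2, MACS2 2.1.2 and bcl2fastq are listed in the submitters' processing notes. The deposited fold enrichment is a ratio of summit pileup to local background. The −log10 p and −log10 q values deposited by the authors come from MACS2, and the deposited score is 10 times the −log10 q-value. Read totals are not in the lists, so depth and the precision it gives were unknown.

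Peaks were assigned to every gene whose body, or 2 kb around a TSS, they overlapped by at least 1 bp (Python 3.11.15, pandas 2.3.3, numpy 2.4.6, scipy 1.17.1, pysam 0.24.0, matplotlib 3.10.9). Summit windows were 300 bp of mm10, and 6 of the 7539 WT Qki-5 peaks had no sequence. Ranks and percentiles are by fold within a list. Wide peaks were those of at least 1000 bp. Shares carry 95% Clopper-Pearson intervals, and no test was made. Any member could be named, with full values for those with Qki-5 and the 5 strongest for Pol II in each genotype. Printed windows were to be the 3 strongest without and the 3 strongest with Pol II, and those of *Emx2* and *Meis1* were left out because they overlap untranslated regions. The members and lists were chosen with earlier results of these data known. On simulated data, 200 of 200 planted overlaps among 2000 genes were found, with 0 false ones. Other settings tried were a q-value under 0.01, a fold of at least 5, other promoter widths, promoters only, summits only, the nearest TSS only and other peak subsets. Some marker genes are not reported here.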

Additional observations from a re-analysis of the deposited data

How the results depend on the processing

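Of 37 alternatives, 35 stayed within 1.5 times the reported count or within the interval of the reported median. Counting only the strongest peak of each gene gave a median width of 940 bp (368 bp for protein-coding genes) and a median percentile by fold of 96.3 (50.2 for protein-coding genes). That percentile favors genes with several peaks, which were more frequent among members. The number of members with WT Qki-5 ranged from 16, when peaks shared with the *Qk*-/- list were left out, to 24, when each peak went to its nearest TSS only. Qki-5 without Pol II held 16 to 19 members, *Qk*-/- Qki-5 8 to 10, and Pol II 13 to 14 in each genotype. The class of Qki-5 without Pol II was not recounted with peaks shared with the *Qk*-/- list left out. It holds all 10 members with *Qk*-/- Qki-5, so its range does not cover that setting. Srebp2 had 0 members, and no alternative was run for it. Of the alternatives, 5 were chosen after seeing the data. No paired analysis was possible because each antibody and genotype had 1 library. Depth, and hence peaks too weak to be called, could not be assessed.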
